A study of Mus musculus with 7 samples.

Results

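The genes that write, read or erase methylation at lysine 9 of histone H3 (H3K9) were placed against the map of lamin-associated domains (LADs) of mouse embryonic fibroblasts. The 10 members were given by name: the methyltransferase genes Ehmt1, Ehmt2, Setdb1, Setdb2 and Suv39h2, the corepressor gene Trim28, the heterochromatin protein 1 (HP1) genes Cbx1, Cbx3 and Cbx5, and the demethylase gene Kdm3a. They were 10 of 21887 protein-coding genes on the placed chromosomes. The rule that chose them uses no measured value, though earlier results of these data were known. The series holds 7 CUT&RUN libraries of fibroblast lines called iMEF, derived independently from 1 mouse colony. CUT&RUN releases the chromatin around an antibody with a tethered nuclease. Lamin B1 and IgG, the control, had 2 libraries each, H3K14ac had 1, and H3K9me2 had 1 with each of the antibodies ab1220 and 39041. No treatment or altered genotype is given in the labels, and only the name of the deposited list says wild type. The list used here gives 1437 LADs on mm10 as positions, taken from its name to merge both Lamin B1 libraries. It has no value per library, so read depth is unknown, no value below has a replicate error, and no test between groups was run. Levels of the H3K9me2 and H3K14ac libraries, and fibroblast markers, were not analysed here.

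Methylation of H3K9 marks transcriptionally silent chromatin, and its dimethylated form is known from the chromatin that touches the nuclear lamina, a protein mesh lining the nuclear envelope. EHMT1 (GLP) and EHMT2 (G9a) act as a pair that adds mono- and dimethylation. SETDB1 and the SUV39H enzymes are best known for trimethylation, SETDB1 at retroelements, where zinc finger proteins with a KRAB domain bring it through TRIM28, and SUV39H at pericentric heterochromatin. HP1 proteins bind the methylated lysine, and KDM3A removes its mono- and dimethylated forms. The position of a gene describes the chromatin around the locus that encodes each protein and says nothing of where the protein acts.

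None of the 10 genes lay in a LAD. The midpoint was in a LAD for 0 of 10 members, against 23.8% of all 21887 protein-coding genes. No member overlapped a LAD at all, whereas 25.1% of protein-coding genes did. No member had its transcription start in a LAD, against 23.9% of the 17492 protein-coding genes with a start in the RefSeq promoter table. Most protein-coding genes are outside LADs too, and with 10 members a count of 0 describes these genes only. The members were spread widely in their distance to a LAD. Their median distance from the gene body to the nearest LAD was 686.5 kb, with a range from 39.1 kb for Trim28 to 4133 kb for Cbx3. The 16387 protein-coding genes without overlap had a median of 800.7 kb and quartiles of 261.2 and 1834 kb. This order of the medians depended on short LADs. With LADs of at least 100 kb the medians were 931.1 kb for the members and 860.2 kb for genes without overlap. Of the members only Suv39h2 had moved, to become the farthest, and it had no LAD left on its lower side. With LADs of at least 500 kb the medians were 1673 and 1201 kb. Cbx5 was then the farthest, with no LAD left on its higher side.

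**Figure D1:**
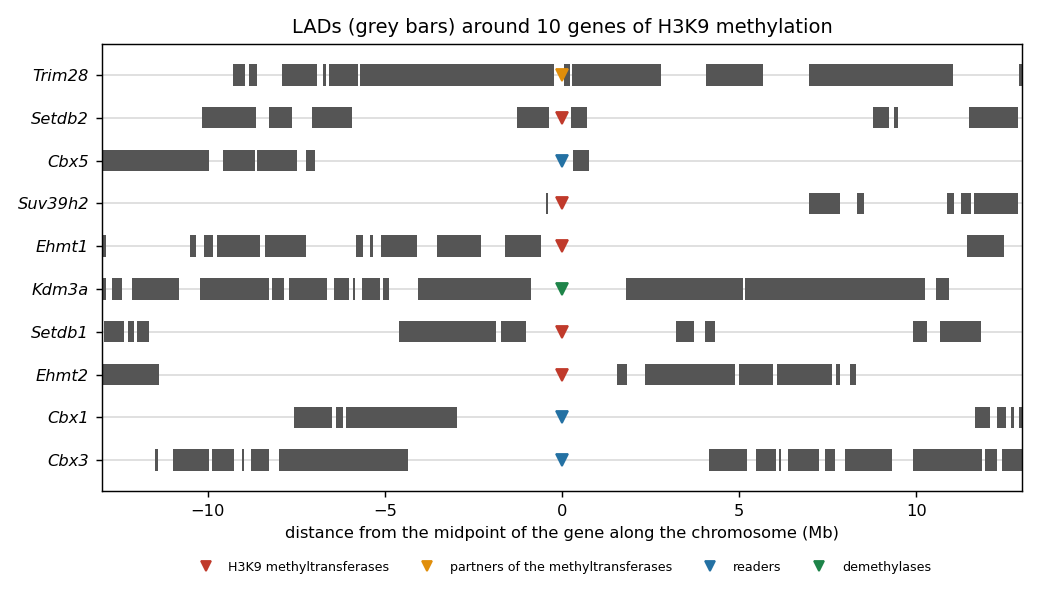
LADs (grey bars) on the chromosome around each of the 10 genes, in Mb from the midpoint of the gene (triangle, coloured by role), ordered from the gene nearest to a LAD at the top to the farthest at the bottom. No triangle lies on a bar, Trim28 sits in a gap of 0.270 Mb and Cbx1 in a gap of 14.6 Mb.

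Sequence at the transcription starts is shown for members and for Kdm4c, a demethylase gene discussed below, because the density of CpG dinucleotides differed between promoters in LADs and those outside. The bases lie upstream of the outermost start in the RefSeq table (GRCm38.p6, the build of mm10), limited to bases in no annotated gene. They are written 5′ to 3′ on the strand of the gene, with CpG in capitals. Ehmt1 (chr2:24919644-24919859, minus strand) and Ehmt2 (chr17:34898224-34898462, plus strand) encode the paired dimethylases, Suv39h2 (chr2:3474987-3475236, minus strand) had the highest CpG count among the stretches and Setdb1 (chr3:95357203-95357452, minus strand) the lowest member count in the promoter window. Setdb2 (chr14:59440881-59440933, minus strand) and Cbx5 (chr15:103239905-103239942, minus strand) are shown over the short stretch that parts them from the next gene. Kdm4c (chr4:74242247-74242496, plus strand) stands for a promoter without CpG. Its outermost start was itself outside LADs, where 4.80% of promoters had 0 or 1 CpG, so it is no example of a promoter in a LAD.
Ehmt1: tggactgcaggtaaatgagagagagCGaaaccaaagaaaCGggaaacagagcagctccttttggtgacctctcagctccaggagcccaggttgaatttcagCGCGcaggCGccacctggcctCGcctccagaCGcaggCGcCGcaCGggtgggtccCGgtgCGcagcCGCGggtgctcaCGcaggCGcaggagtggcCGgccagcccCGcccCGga
Ehmt2: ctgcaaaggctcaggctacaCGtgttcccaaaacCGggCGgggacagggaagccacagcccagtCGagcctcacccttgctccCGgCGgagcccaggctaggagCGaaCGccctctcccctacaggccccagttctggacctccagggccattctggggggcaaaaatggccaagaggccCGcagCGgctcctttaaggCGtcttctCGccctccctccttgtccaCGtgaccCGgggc
Suv39h2: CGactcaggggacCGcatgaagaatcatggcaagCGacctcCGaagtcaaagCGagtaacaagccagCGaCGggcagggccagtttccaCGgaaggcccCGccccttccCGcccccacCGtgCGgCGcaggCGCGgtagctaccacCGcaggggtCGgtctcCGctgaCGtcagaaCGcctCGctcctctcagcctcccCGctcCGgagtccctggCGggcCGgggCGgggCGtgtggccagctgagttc
Setdb1: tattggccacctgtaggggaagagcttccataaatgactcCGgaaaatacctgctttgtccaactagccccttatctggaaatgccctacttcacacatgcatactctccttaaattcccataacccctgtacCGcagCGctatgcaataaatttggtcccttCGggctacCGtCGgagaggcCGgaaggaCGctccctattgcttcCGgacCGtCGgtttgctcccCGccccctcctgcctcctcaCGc
Setdb2: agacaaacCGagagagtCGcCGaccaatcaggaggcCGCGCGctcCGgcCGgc
Cbx5: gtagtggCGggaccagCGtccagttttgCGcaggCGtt
Kdm4c: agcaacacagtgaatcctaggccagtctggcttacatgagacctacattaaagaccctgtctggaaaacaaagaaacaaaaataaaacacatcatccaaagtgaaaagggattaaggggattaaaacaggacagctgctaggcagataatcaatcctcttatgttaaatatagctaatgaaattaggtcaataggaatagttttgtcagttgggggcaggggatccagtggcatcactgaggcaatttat
The printed stretch of Suv39h2 held 27 CpG in 250 bases, that of Ehmt1 19 in 216, that of Ehmt2 14 in 239 and that of Setdb1 13 in 250. Kdm4c had 0 in 250 bases.

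Over the full promoter window of 300 bases (250 before the start), the 10 members had a median of 28.5 CpG. Setdb1 was lowest with 15, followed by Cbx1 with 22, Trim28 with 23 and Kdm3a with 24. Ehmt2 had 28, Setdb2 and Cbx5 had 29 each, Suv39h2 had 33, and Ehmt1 and Cbx3 had 34 each. Among protein-coding genes, the 4180 promoters with a start in a LAD had a median of 2 CpG (quartiles 1 and 7) and the 13312 outside had a median of 17 (quartiles 7 and 26). At least 15 CpG, the lowest value of a member, were found in 14.4% of promoters in LADs, 57.7% of those outside and 47.4% of all. The limit was taken from the members, so all 10 reach it by construction. The observed number of CpG relative to the number that the bases C and G would give by chance had a median of 0.88 over the members, against 0.19 for promoters in LADs and 0.69 for those outside. The G and C content of the members' windows ran from 52.7% for Cbx1 to 75.3% for Cbx3.

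**Figure D2:**
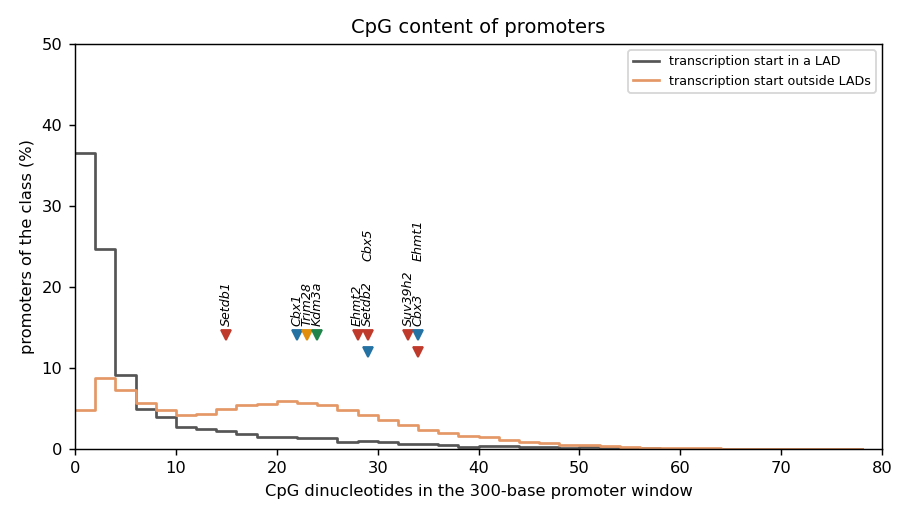
CpG dinucleotides per promoter window of 300 bases (horizontal axis) and the percentage of promoters with that count (vertical axis), for starts in a LAD (grey line) and outside (orange line). Triangles mark the 10 members at their own counts, from 15 for Setdb1 to 34 for Ehmt1 and Cbx3; their height has no meaning.

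The methyltransferase genes stood at 5 different distances. Ehmt1 (Entrez Gene 77683; chromosome 2, 24790769 to 24919643) was 520.9 kb from the LAD at lower coordinates and 11383 kb from the LAD at higher coordinates. Its partner Ehmt2 (110147; chromosome 17, 34898463 to 34914073) was 11364 kb from the lower LAD and 1555 kb from the higher one. Both thus lay in very long intervals between LADs, of 12.03 Mb for Ehmt1 and 12.9 Mb for Ehmt2, which ranked 7 and 6 among all 1416 intervals. Each sat toward one end of its interval, Ehmt1 at 4.86% of the way from the lower end and Ehmt2 at 87.9%. The interval of Ehmt2 held 421 protein-coding genes, or 32.5 per Mb, and that of Ehmt1 259, or 21.5 per Mb. Past the higher end of the Ehmt2 interval came a LAD of 272.5 kb whose 3 protein-coding genes were H2-M11, H2-M9 and H2-M1, of the major histocompatibility complex. The higher LAD of Ehmt1 (36302297 to 37329792) held 27 protein-coding genes, all 27 of them olfactory receptors.

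Setdb1 and Setdb2 are related by their split SET domain. Setdb1 (84505; chromosome 3, 95323525 to 95357202) was 1010 kb from the lower and 3214 kb from the higher LAD, in an interval of 4.26 Mb with 113 protein-coding genes. Setdb2 (239122; chromosome 14, 59402009 to 59440880) was 353.4 kb from the lower and 222.8 kb from the higher LAD. Its interval measured 0.615 Mb and held 12 protein-coding genes, among them Phf11a, Phf11b, Phf11c and Phf11d. With LADs of at least 500 kb only, the intervals were 11.7 Mb for Setdb1 and 11.9 Mb for Setdb2, so the difference between them rests on the shorter LADs. The lower LAD beside Setdb2, 907.5 kb long, held no protein-coding gene by midpoint, and the higher one, 452.5 kb long, held 1, Atp8a2, which encodes a lipid flippase. Within 500 kb on either side of its midpoint, 38.5% of the sequence around Setdb2 was LAD, against 0% around Setdb1.

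Suv39h2 (64707; chromosome 2, 3455815 to 3474986) was 388.4 kb from the lower LAD and 6952 kb from the higher one. The lower LAD (3022402 to 3067401) was the first of the chromosome, measured 45.0 kb and held no annotated gene. The nearest distance of Suv39h2 rested on this short LAD: with LADs of at least 100 kb only, it became 6952 kb, 17.9 times as far. That was the distance to the higher LAD, with none left on the lower side. The interval of 7.36 Mb held 38 protein-coding genes, or 5.16 per Mb, the lowest density among the members. Suv39h2 and Ehmt1, on the same chromosome, were 21.3 Mb apart with 11 LADs between them, which covered 35.0% of that stretch.

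Trim28 was the member nearest to a LAD. The gene (21849; chromosome 7, 13024152 to 13031032) was 224.1 kb from the lower LAD and 39.1 kb from the higher one. It was the 1 member within 50 kb of a LAD, against 5.25% of protein-coding genes that were this close without overlap. Its interval of 270.0 kb was close in length to the median of all intervals, 240.0 kb, and the shortest of any member. The other 9 members were in intervals of 0.615 to 14.6 Mb. With LADs of at least 500 kb only, its nearest distance became 224.1 kb, and under the same setting that of Setdb2 became 353.4 kb and that of Ehmt2 2335 kb. The lower LAD (7317605 to 12800086) was 5482 kb long, and 46 of its 57 protein-coding genes were olfactory or vomeronasal receptors and 8 had zinc finger symbols. The higher LAD (13070086 to 13255085) measured 185.0 kb, and its 5 protein-coding genes were Vmn1r85, Vmn1r86, Vmn1r87, Vmn1r88 and Vmn1r89, all vomeronasal receptors.

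The short interval around Trim28 was dense in genes, with 15 protein-coding genes, or 55.6 per Mb, the highest density among the members. Of these 15, 7 had a symbol with a zinc finger prefix such as Zfp, Zscan or Zbtb, or 46.7%, against 2.19% of all protein-coding genes. They were Zfp329, Zfp110, Zfp128, Zscan22, Zfp324, Zfp446 and Zbtb45. Symbols without such a prefix, Mzf1 among them, were not counted. Zinc finger genes occur in clusters, so neighbouring counts are not independent. The adjacent gene on the higher side was Chmp2a, whose product acts in membrane scission, 0.973 kb from Trim28. LADs covered 28.8% of the sequence within 100 kb of the midpoint of Trim28, 83.9% within 1000 kb and 91.9% within 2000 kb. For protein-coding genes outside LADs, the medians were 0%, 6.0% and 21.1%. Trim28 was thus outside LADs in a stretch that was mostly LAD, on a chromosome where 37.4% of protein-coding genes were in LADs.

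**Figure D3:**
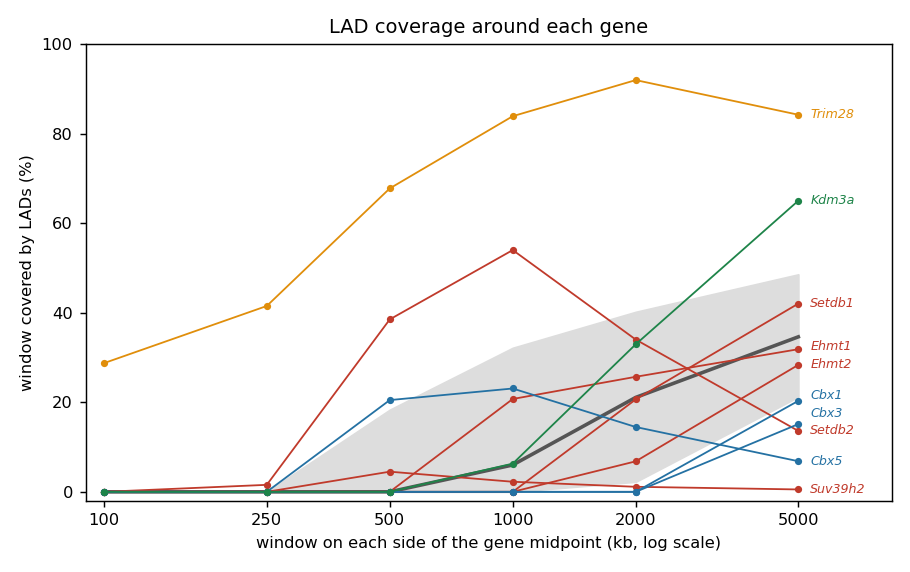
Percentage of sequence in LADs (vertical axis) within windows of 100 to 5000 kb on each side of the gene midpoint (horizontal axis, log scale), 1 coloured line per member, with the median (dark line) and quartiles (grey band) of protein-coding genes outside LADs. Trim28 lies above the band at each window size, and Suv39h2 ends lowest, at 0.532%, in a window cut off on one side by the start of the chromosome. Windows also stopped at the last annotated gene of a chromosome. This cut those of Cbx5 short from 1000 kb up, inside its higher LAD.

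The HP1 genes, whose products read H3K9 methylation, included both the farthest members and one of the nearest. Cbx3 (HP1 gamma; 12417; chromosome 6, 51470154 to 51483704) was 4341 kb from the lower and 4133 kb from the higher LAD, so it lay almost in the middle of its interval of 8.49 Mb, at 51.2% of the way. Cbx1 (HP1 beta; 12412; chromosome 11, 96788680 to 96808982) was 2958 kb from the lower and 11661 kb from the higher LAD. Its interval of 14.6 Mb was the longest of any member, ranked 4 among all intervals, and held 392 protein-coding genes. Cbx5 (HP1 alpha; 12419; chromosome 15, 103191546 to 103239904) was 6951 kb from the lower but 271.0 kb from the higher LAD, at 95.9% of the way through an interval of 7.27 Mb. No LAD fell within 2000 kb of the midpoints of Cbx1 and Cbx3, whereas LADs covered 20.5% of the sequence within 500 kb of Cbx5. The higher LAD of Cbx5 measured 465.0 kb and held Pde1b, Ppp1r1a, Glycam1 and Mucl2. With LADs of at least 500 kb only, the nearest distance of Cbx5 became 7448 kb, to a LAD on the lower side, with none left on the higher side.

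Cbx5, Cbx3 and Setdb2 lay head to head with the adjacent gene over less than 0.2 kb. So did 4.78% of 17492 protein-coding genes of known strand, and 6.04% of the 13214 with their midpoint outside LADs. Cbx5 was parted by 38 bp from Hnrnpa1 and Cbx3 by 105 bp from Hnrnpa2b1, related genes for proteins that bind RNA. Setdb2 was parted by 53 bp from Cab39l. The whole 38 bp and 53 bp are the sequences printed above for Cbx5 and Setdb2. Counting the adjacent genes on either side and those overlapping a member, 24 protein-coding genes neighboured the members, and 0 of these 24 had their midpoint in a LAD, against 23.8% of all protein-coding genes. These neighbours lie at most 74.4 kb from genes outside LADs, so their count is not independent of that of the members.

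Kdm3a (104263; chromosome 6, 71588970 to 71632990), the demethylase, was 852.0 kb from the lower and 1786 kb from the higher LAD. Its interval of 2.68 Mb held 43 protein-coding genes and was enclosed by a LAD of 3197 kb on the lower side and one of 3290 kb on the higher side. The lower one (67539434 to 70736923) held no protein-coding gene but 162 genes annotated as V segments or V segment pseudogenes. Coverage around Kdm3a was 6.30% within 1000 kb and 65.0% within 5000 kb, the second highest at the larger size after Trim28 with 84.2%. Cbx3 and Kdm3a, on the same chromosome, were 20.1 Mb apart with 14 LADs between them.

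**Figure D4:**
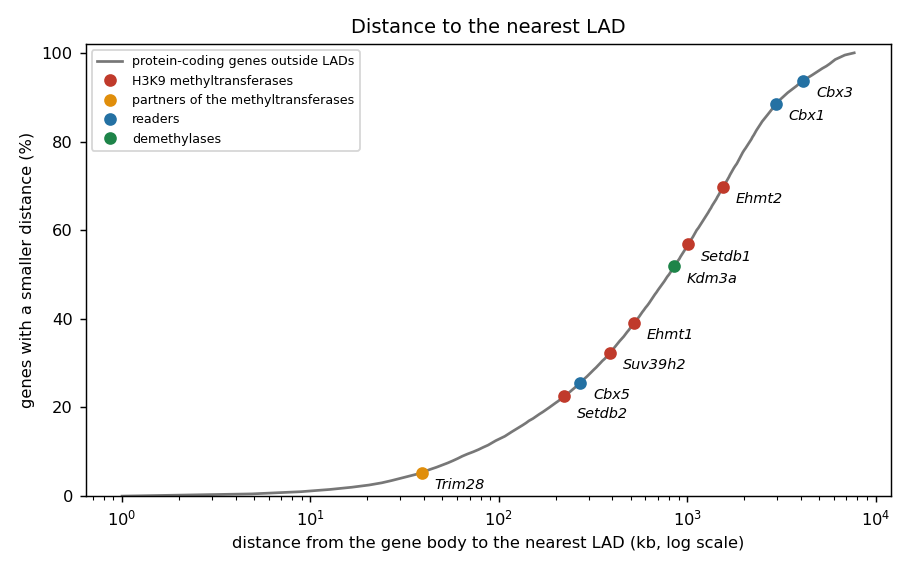
Distance from the gene body to the nearest LAD in kb (horizontal axis, log scale) against the percentage of protein-coding genes outside LADs that were nearer (vertical axis, grey line), with the 10 members as coloured points. The points run along the line from 5.32% for Trim28 to 93.7% for Cbx3.

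In order of distance to the nearest LAD, the members were Trim28, Setdb2, Cbx5, Suv39h2, Ehmt1, Kdm3a, Setdb1, Ehmt2, Cbx1 and Cbx3. The distance of Trim28 minus that of Setdb2 was -183.7 kb, and further steps in this order were 48.2 kb from Setdb2 to Cbx5 and 158.2 kb from Kdm3a to Setdb1. Border positions were resolved to about 2.5 kb, so these steps exceed the grid of the list, but without replicates their error is unknown. On a log scale, the closest pair was Kdm3a and Setdb1 (852.0 and 1010 kb), then Setdb2 and Cbx5 (222.8 and 271.0 kb). Within 500 kb of a LAD were 4 of the 10 members, against 38.0% of protein-coding genes without overlap. Intervals of at least 5 Mb held 6 of the 10, against 39.5% of the 15633 genes without overlap that had a LAD on both sides. The median interval holding a member measured 7.31 Mb, and that over the 15633 genes was 4.04 Mb, with quartiles of 1.83 and 6.81 Mb.

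Most LADs that enclosed the members were longer than the median LAD. Of 20 different flanking LADs, 15 exceeded the median LAD length of 445.0 kb, and their own median was 898.7 kb. The shortest was the 45.0 kb LAD below Suv39h2 and the longest the 5482 kb LAD below Trim28. The LADs that flank other genes outside LADs were not counted. Whether this count is particular to the members is therefore unknown, and it was not tested.

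The wider pathway was described with 46 genes, the 10 members included, in 5 lists. By midpoint, 4 of the 46 lay in a LAD (8.70%), against the 23.8% of all protein-coding genes, and all 4 were among the 36 genes that were no members (11.1%). Each of 4 lists had 1 such gene. Among 9 methyltransferase genes it was Prdm16, among 8 partners of the methyltransferases Atf7ip2, among 9 readers and tethering factors Cdyl2, and among 11 demethylase genes Kdm4c. Of the 9 genes for H3K14 acetylation, 0 lay in a LAD. Genes without overlap had median distances of 324.3 kb for the methyltransferases, 274.8 kb for their partners, 2201 kb for readers, 874.0 kb for demethylases and 744.9 kb for H3K14 acetylation. The ranges of these lists overlapped, and the differences between them were not tested.

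**Figure D5:**
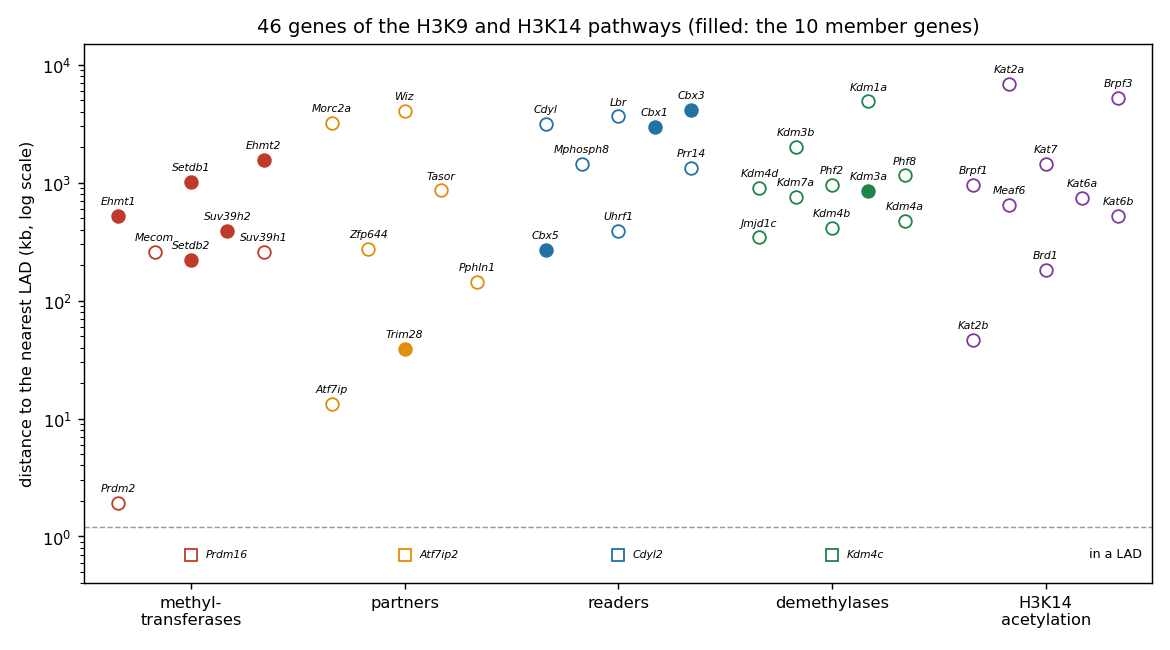
Distance to the nearest LAD in kb (vertical axis, log scale) for 46 genes in 5 pathway lists (horizontal axis; the spread within a list has no meaning). Filled circles are the 10 members, open circles the other genes outside LADs, and squares below the dashed line the 4 genes with their midpoint in a LAD, none of them a member.

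Of the 4 genes in LADs, 3 crossed a border. Cdyl2 (chromosome 8, 116568723 to 116732991), for a chromodomain protein, measured 164.3 kb and lay wholly (100%) in a LAD. Prdm16 (chromosome 4, 154316122 to 154637360), for a PR domain protein of adipocyte differentiation, measured 321.2 kb and was in a LAD over 89.3% of its length, its start included. Atf7ip2 (chromosome 16, 10192649 to 10250731), related to the SETDB1 partner Atf7ip, measured 58.1 kb and was in a LAD over 80.9% of its length, start included. Kdm4c (chromosome 4, 74242497 to 74405864) was in a LAD over 76.6% of its 163.4 kb. The outermost of its 2 starts in the promoter table lay outside, 16.8 kb from the nearest LAD, and its other start was not placed. By transcription start, 2 of the 41 pathway genes in the promoter table were in a LAD, Prdm16 and Atf7ip2. Kdm4c left the count because its outermost start lay outside, and Cdyl2 because it has no entry in that table. The members measured 6.88 to 128.9 kb, with a median of 27.0 kb, and the median of all protein-coding genes was 17.2 kb. Mecom (558.5 kb) and Cdyl (214.2 kb) were long pathway genes that lay outside LADs. The part of gene length in these counts was not tested.

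Close to a LAD without touching it, at less than 50 kb, were 4 of the 46 genes, against 5.25% of all protein-coding genes. Prdm2, for a methyltransferase with a PR domain, was 1.92 kb away, which is less than the 2.5 kb grid of the list. Atf7ip, a stabilising partner of SETDB1, was 13.4 kb away, Trim28 39.1 kb and Kat2b, an acetyltransferase gene, 46.2 kb. With LADs joined over gaps of at most 250 kb, Prdm2 and Atf7ip, in intervals of 0.237 and 0.192 Mb, fell in LADs and the count rose to 6 of 46. Kat2b and Trim28, in intervals of 0.265 and 0.270 Mb, stayed just outside that limit. Farthest of all 46 was Kat2a, for another acetyltransferase, at 6874 kb.

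Some members shared an interval with other genes of the pathway. The 14.6 Mb interval of Cbx1 also held Kat7, 1.48 Mb below it, and Kat2a, 3.90 Mb above it, both for H3K14 acetyltransferases. That of Ehmt2 also held Brpf3, a scaffold subunit of such enzymes, 6.06 Mb below, and Wiz, a zinc finger partner of the EHMT pair, 2.51 Mb below. Suv39h1, the X-linked counterpart of Suv39h2, was 257.0 kb from a LAD, against 388.4 kb for Suv39h2. Lbr, an inner nuclear membrane protein gene whose product binds HP1, was 3652 kb from the nearest LAD. Adjacent on chromosome 17, the reader gene Uhrf1 and the demethylase gene Kdm4b were 391.9 and 414.6 kb away.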

How the data were processed

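CUT&RUN was run on 500000 cells per reaction, with antibodies diluted 1 to 100 (IgG 1 to 50) and digestion for 2 hours in 2 mM calcium chloride, per the labels' protocols. The submitters' processing notes name Bowtie2 and mm10. The LAD caller, its threshold and the use of IgG or spike-in are not given in the sources used here. The authors deposited LADs as start and end positions, and the deposited score was 0 in all 1437 rows. Every length (100%) was a multiple of 2.5 kb to within 125 bp, and the smallest gap was 52.5 kb. Whether closer LADs had been joined is not given in the sources used here. Because 2 rows stood out of order, rows were sorted first.

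Gene positions came from the RefSeq table of GRCm38.p6. A gene was counted in a LAD by its midpoint, and distances are the bases between the gene body and the LAD. Promoters used the outermost start in the RefSeq table, found for all 10 members and 41 of 46 pathway genes. The code was checked on simulated intervals. The planned proteins of Cbx1, Cbx3 and Cbx5 were not used here, and the planned promoters of Trim28 and Cbx3 lie inside annotated genes, so others were printed, chosen after their values were seen. Named genes were all members, pathway genes in or within 50 kb of a LAD, and the farthest one. The genes beside each member were also planned, but only some of them are named. Other named genes were chosen after their values were seen. Members, lists and comparisons were chosen with earlier results of these data known. Python 3.11.15, pandas 2.3.3 and numpy 2.4.6 were used.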

Additional observations from a re-analysis of the deposited data

How the results depend on the processing

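The count of members in LADs was 0 of 10 under every alternative, which says nothing about its stability. No member overlapped a LAD, the nearest lay 39.1 kb away and the shortest interval measured 270.0 kb, so none of the alternatives could place a member in a LAD. The median nearest distance of 686.5 kb became 931.1 kb with LADs of at least 100 kb, 1673 kb with LADs of at least 500 kb, 772.9 kb from the transcription start, and 676.5 or 696.5 kb with LADs extended or shortened by 10 kb at both ends. The median interval of 7.31 Mb became 7.27 Mb with a 100 kb minimum (9 members with a LAD on both sides), 11.8 Mb with 500 kb (8 members), and 7.29 or 7.33 Mb with LADs extended or shortened. Joining over 100 or 250 kb moved neither median. The median over protein-coding genes without overlap, 800.7 kb, became 860.2 and 1201 kb with the 100 and 500 kb minimum, values added after seeing the data, so the members' median went from below it to above it. Of 70 distances of single members under 7 alternatives, 6 moved by over 1.5 times, for Suv39h2, Ehmt2, Setdb2, Trim28 and Cbx5, each where a minimum length removed the LAD next to the gene. Intervals moved by over 1.5 times for Setdb2 (0.615 to 11.9 Mb), Setdb1 (4.26 to 11.7 Mb) and Trim28 (0.270 to 0.507 Mb), all with LADs of at least 500 kb. The pathway count of 4 of 46 was 2 of 41 by transcription start, where Kdm4c had its outermost start outside and Cdyl2 has no start in the table. It was 3 with a 500 kb minimum, 6 with joining over 250 kb, and 4 otherwise. The share of protein-coding genes in LADs, 23.8%, was 20.7% with a 500 kb minimum, 24.5% and 27.3% with joining over 100 and 250 kb, 25.1% by any overlap, 24.6% and 23.1% with LADs extended and shortened, 31.9% over all annotated genes, and 24.6% over genes between the first and last LAD of a chromosome, an alternative chosen after seeing the data. Counting all annotated genes changes only this share.

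No paired analysis was possible because the list gives no value per library, which also left no way to drop either Lamin B1 replicate. Depth is unknown, so how many short LADs or short gaps near a member a deeper library would keep was not tested.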

Other observations

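The nearest LAD was on the 3′ side of 7 members and on the 5′ side of 3 (Setdb2, Cbx1 and Cbx5), while 50.0% of protein-coding genes outside LADs had it on the 3′ side. Counted in genes outside LADs that lay between a member and its nearest LAD, the distance was 3 for Trim28 and Setdb2, 6 for Ehmt1, 7 for Suv39h2 and 9 for Cbx5. The numbers were 15 for Kdm3a, 37 for Setdb1 and Cbx3, 70 for Cbx1 and 84 for Ehmt2. Cbx3 and Setdb1 were thus separated from a LAD by the same number of genes, although their distances were 4133 and 1010 kb.

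The chromosomes of the members differed in how many protein-coding genes were in LADs, from 6.77% on chromosome 11, which carries Cbx1, to 37.4% on chromosome 7, which carries Trim28.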
